A study of Mus musculus with 3 samples.

Results

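Classical antioxidant target genes of the transcription factor NRF2 were followed in LPS-stimulated mouse macrophages with and without prior exposure to lactobacilli. The 10 genes were Hmox1, Nqo1, Gclc, Gclm, Gsr, Slc7a11, Txnrd1, Srxn1, Prdx1 and Sqstm1. They were found by their symbol in the gene name column of the arrays, and they are 10 of the 36870 gene names on each array, with 19 probes. Of the 10, 9 genes had a signal well above background on all 3 arrays. Nqo1, which codes for a quinone reductase, did not, with intensities of 3.46, 3.13 and 4.21 in the LPS, LOC1 and LOC3 arrays, so no difference is given for it.

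The cells were RAW264.7, an established mouse macrophage line. The LPS group received the TLR4 agonist lipopolysaccharide alone for 3 h. The LOC1 and LOC3 groups were first cultured with Lactiplantibacillus plantarum LOC1 or LOC3, 2 strains from fresh tea leaves, and then received the same LPS challenge. The dose of LPS and the hours with lactobacilli are given differently in the sources and are not stated here. Each condition was measured on 1 one-colour Agilent array, so a difference between conditions has no SD here and could not be tested.

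NRF2, encoded by Nfe2l2, is held at a low level in resting cells because KEAP1 delivers it to a CUL3 ubiquitin ligase. Oxidants and electrophiles disable KEAP1, and NRF2 then pairs with a small MAF protein on antioxidant response elements (AREs). BACH1, a heme-regulated repressor, occupies the same elements. In macrophages the targets detoxify heme and quinones, make and recycle glutathione, and reduce peroxides.

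Signals are intensities in arbitrary units, and differences are in log2 units after each array was divided by its own 75th percentile, an intensity of 504 to 544. A difference of 1 is 2-fold. Of the probes, 47.8% to 51.9% were well above background, and no spot was saturated. The arrays shared 1 slide and 1 scan. Where a gene had several probes, the brightest represents it, and for the 10 NRF2 targets the others are given as well. Intensities of different probes are not comparable with each other. As a measure of error, the scanner software's own error model gave a standard error of 0.20 for the difference of each of the 9 detected genes. The spot-to-spot noise of 258 bright probes printed repeatedly on each array gave an SD of 0.06 for a difference. This spot noise is taken within each array, so it leaves out variation between arrays, as from labelling or hybridisation. Neither measure contains the variation between cultures.

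The RNA was that of macrophages, as all 9 macrophage markers examined had a signal well above background. Their summed intensity, before scaling, was 481521 in the LPS, 385555 in the LOC1 and 417635 in the LOC3 array. Much of this sum is 1 gene, Lyz2, at 244528, 185159 and 211178 in the same order. After scaling, 5 of the 9 markers were above LPS and 4 below with each strain. Their median difference was 0.03 with LOC1 and 0.04 with LOC3. Among markers of other cells, 2 of 6 lymphocyte genes, 3 of 7 epithelial or fibroblast genes and 3 of 7 erythroid, neutrophil or mast cell genes passed the same mark. The summed intensities of these lists lay between 89.3 and 498. Cd3e at 396 to 451 and Elane at 309 to 329 were well above background on all 3 arrays, and Cd79a, Cdh1, Krt8 and Ly6g were not well above background on any array. The part of these levels in the results was not tested. In bulk RNA, fewer cells expressing a gene and less RNA per cell cannot be told apart.

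The sequence upstream of the annotated starts is shown first, as AREs, the elements through which NRF2 acts, can lie there. RefSeq windows of 250 bases (build GRCm38.p6) were at hand for 7 of the 10 genes, Txnrd1 with 3 starts. Hmox1, Gclc and Gsr are named only. Both strands were searched for the ARE core TGACNNNGC, which 10.2% of all 32851 windows of this length held, and for its variant TGAGNNNGC, held by 14.4%. The AP-1 site TGACTCA was held by 4.46%, and the amino acid response element TGATGCAA, a site of ATF4, by 0.791%. An ARE core of the form TGACTCAGC, or a variant TGAGTCAGC, also holds an AP-1 site, so these letters are counted under both names. The windows below are those of the genes that the results turn on, 5′ to 3′ on the gene's strand up to the base before the start, with matches of any of the motifs in capitals.

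Srxn1, chr2:152105274-152105523, plus strand: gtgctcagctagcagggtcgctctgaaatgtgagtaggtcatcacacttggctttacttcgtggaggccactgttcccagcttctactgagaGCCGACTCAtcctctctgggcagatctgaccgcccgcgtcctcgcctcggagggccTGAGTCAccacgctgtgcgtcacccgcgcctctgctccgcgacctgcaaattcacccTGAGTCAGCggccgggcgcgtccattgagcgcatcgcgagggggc
Prdx1, chr4:116685349-116685598, plus strand: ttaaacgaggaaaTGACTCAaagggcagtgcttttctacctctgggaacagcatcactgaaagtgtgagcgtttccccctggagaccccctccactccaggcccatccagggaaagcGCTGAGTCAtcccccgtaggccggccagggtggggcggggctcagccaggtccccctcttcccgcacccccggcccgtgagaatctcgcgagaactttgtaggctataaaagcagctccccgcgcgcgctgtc
Sqstm1, chr11:50210821-50211070, minus strand: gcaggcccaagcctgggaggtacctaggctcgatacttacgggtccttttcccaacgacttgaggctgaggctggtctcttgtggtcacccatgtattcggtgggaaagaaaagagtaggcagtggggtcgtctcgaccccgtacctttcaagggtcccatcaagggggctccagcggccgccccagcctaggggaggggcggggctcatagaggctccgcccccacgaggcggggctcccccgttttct
Gclm, chr3:122245307-122245556, plus strand: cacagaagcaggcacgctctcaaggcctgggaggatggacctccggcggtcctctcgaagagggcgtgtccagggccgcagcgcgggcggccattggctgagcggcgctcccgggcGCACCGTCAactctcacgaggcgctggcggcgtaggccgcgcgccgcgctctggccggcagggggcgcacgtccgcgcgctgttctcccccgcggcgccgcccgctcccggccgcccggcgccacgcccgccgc
Txnrd1, second start, chr10:82858956-82859205, plus strand: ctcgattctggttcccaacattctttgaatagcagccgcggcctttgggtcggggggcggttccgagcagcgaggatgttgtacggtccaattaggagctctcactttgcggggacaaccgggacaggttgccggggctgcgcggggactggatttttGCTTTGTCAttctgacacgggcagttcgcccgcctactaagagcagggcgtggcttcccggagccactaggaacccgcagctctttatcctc
Slc7a11, chr3:50443614-50443863, minus strand: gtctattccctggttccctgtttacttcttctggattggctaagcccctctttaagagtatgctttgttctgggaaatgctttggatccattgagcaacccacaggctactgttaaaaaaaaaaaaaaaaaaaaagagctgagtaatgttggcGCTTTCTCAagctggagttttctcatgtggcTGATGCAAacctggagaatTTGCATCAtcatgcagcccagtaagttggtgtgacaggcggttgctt

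Srxn1 held the ARE variant from -158 to -150 and again from -45 to -37, with AP-1 sites from -102 to -96 and, inside the second variant, from -45 to -39. Prdx1 held the ARE core from -133 to -125, overlapping an AP-1 site from -131 to -125, and a further AP-1 site from -237 to -231. Gclm held the ARE core from -134 to -126, and Txnrd1 from -92 to -84 at its second start. Slc7a11 held the ARE variant from -97 to -89 and the ATF4 site at -66 to -59 and, on the other strand, at -47 to -40. None of these letters was found in the windows of Sqstm1, Nqo1 or the other 2 Txnrd1 starts, which says nothing of elements further away. A match is a description of letters and not a bound site.

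**Figure D1:**
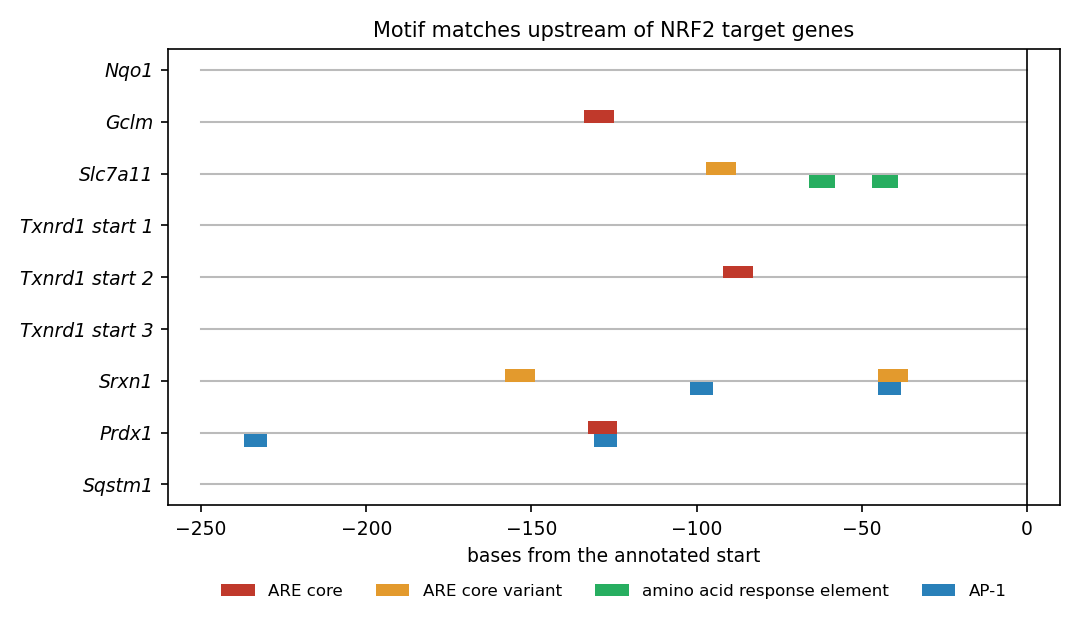
Positions of motif matches in the 9 upstream windows of 7 NRF2 target genes, in bases from the annotated start (x axis), 1 window per line. ARE cores and variants are drawn above the line and AP-1 and amino acid response elements below it; Srxn1 and Prdx1 hold ARE-type matches that overlap an AP-1 site.

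The first comparison asked how the NRF2 targets differed between macrophages given LOC1 before LPS and macrophages given LPS alone, and the second asked the same of LOC3. With both strains the same 3 genes were higher, Sqstm1, Srxn1 and Prdx1, and the same 4 were lower, Hmox1, Txnrd1, Gclc and Gclm, of which Gclm turned to 0.03 with LOC1 under median scaling. The differences were small, the largest being 1.55-fold for Sqstm1 with LOC1. None of the 9 detected genes was past 2-fold with either strain, where 2.49% of 20028 genes were at least 2-fold higher and 3.88% lower with LOC1, and 3.01% of 19810 genes were higher and 3.27% lower with LOC3. At 1.5-fold, Sqstm1 alone of the 9 was called, higher with both strains, beside 7.64% of all genes higher and 11.6% lower with LOC1, and 7.81% higher and 9.64% lower with LOC3. Against 2 scanner errors, a measure chosen after the data were seen, Sqstm1 and Srxn1 were called higher with both strains and no member lower. The same mark was passed upward by 11.3% and downward by 13.5% of all genes with LOC1, and by 11.1% and 11.5% with LOC3. Counts of 0 to 2 among 9 genes are a description of these arrays.

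The median difference of the 9 genes was -0.13 with LOC1, where 3 genes were above 0 and 6 below, beside a median of -0.00 over all genes compared. With LOC3 it was 0.01, with 5 above 0 and 4 below, beside 0.03 over all genes. Another scaling moves all of these values together. With each array scaled to its median in place of its 75th percentile, the median of all genes moved to 0.22 with either strain, and the genes at least 2-fold higher and lower with LOC1 became 888 and 480 in place of 499 and 777. With LOC3 they became 888 and 393 in place of 597 and 647. On that scale Gclm, Gsr and Slc7a11 were above 0 with LOC1, at 0.03, 0.09 and 0.16. This scaling adds the same constant to every gene of a comparison, so the members' median less that of all genes, -0.13 with LOC1 and -0.02 with LOC3, cannot change under it. Under quantile normalization it was -0.20 and -0.10.

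**Figure D2:**
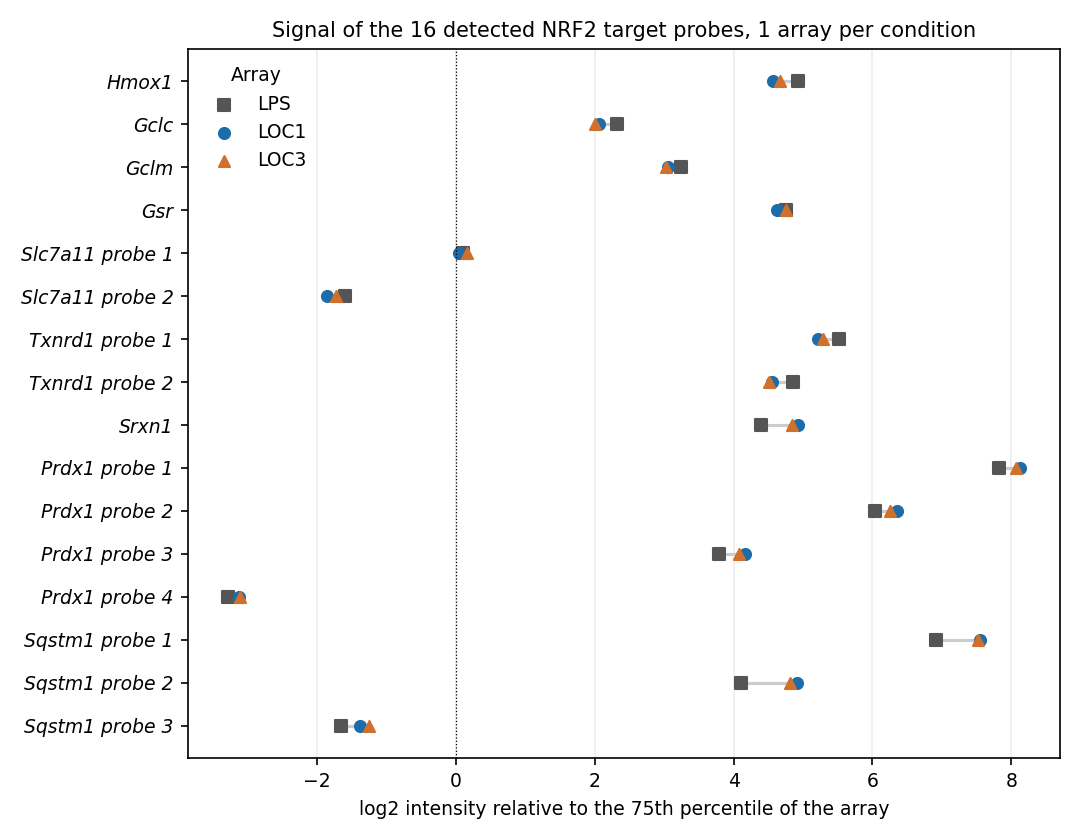
Signals of the 16 detected probes of the 9 genes in the LPS (square), LOC1 (circle) and LOC3 (triangle) arrays, as log2 intensity after subtraction of the log2 75th percentile of each array (x axis); probes of a gene are numbered from the brightest, and lines of different probes are not comparable in level. All Srxn1, Prdx1 and Sqstm1 probes have the LPS square on the left, and the Hmox1, Gclc, Gclm and Txnrd1 probes have it on the right, which for Gclm against LOC1 turns under median scaling.

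**Figure D3:**
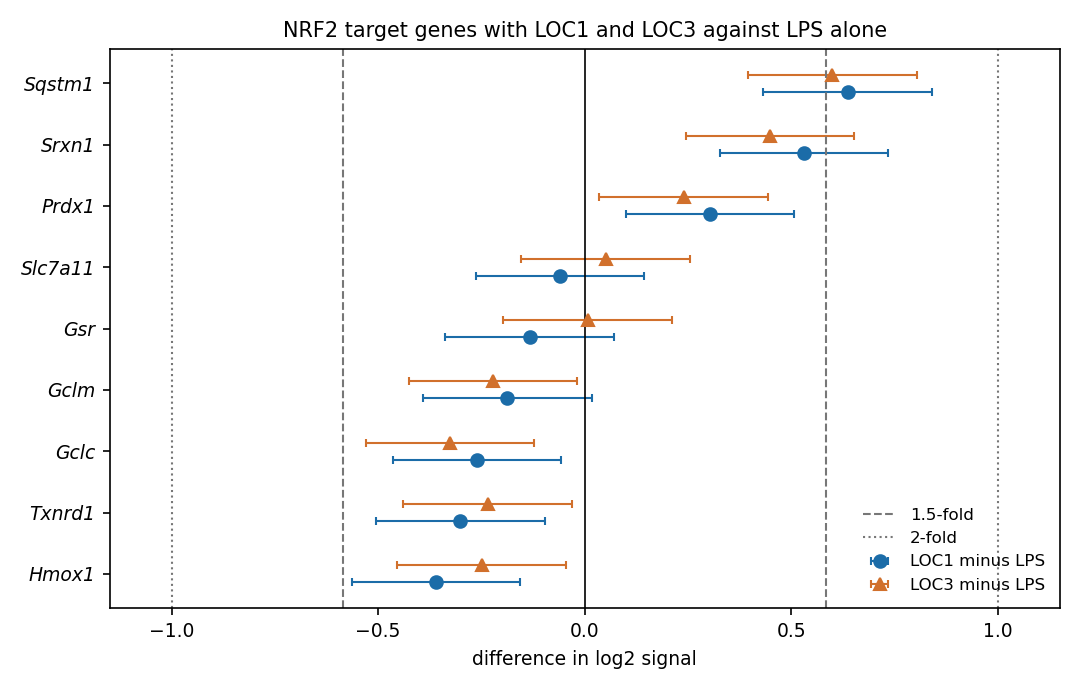
Difference in log2 signal of LOC1 (circle) and LOC3 (triangle) from LPS alone (x axis) for the 9 detected genes, brightest probe, 1 array per condition; bars are 1 scanner standard error to each side, and dashed and dotted lines mark 1.5-fold and 2-fold. Sqstm1 lies at the 1.5-fold line with both strains, and no gene reaches 2-fold.

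The gene with the largest difference was Sqstm1, which codes for p62, an autophagy receptor that binds KEAP1 and so releases NRF2. Its brightest probe (chr11:50013670-50013729 in mm9, minus strand) read 65647 with LPS, 94540 with LOC1 and 92796 with LOC3. Both lactobacilli arrays were above the LPS array, by 0.64 with LOC1 (3.12 scanner errors) and 0.60 with LOC3 (2.94 scanner errors). A second probe (chr11:50015985-50016044) read 9406, 15119 and 14232 in the same order, which is 0.79 and 0.70 higher. The dimmest probe (chr11:50012868-50012927) read 172, 193 and 212, a difference of 0.28 and 0.40. All 3 Sqstm1 probes thus had LPS lowest. The 1.5-fold call of Sqstm1 did not hold under quantile normalization, with the 75th percentile taken over detected probes only, or with the mean of its probes, under which its difference was between 0.46 and 0.57 with either strain.

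Srxn1, sulfiredoxin, repairs peroxiredoxins that peroxide has over-oxidised. Its single probe (chr2:151937009-151937068, plus strand) read 11445 with LPS, 15321 with LOC1 and 14572 with LOC3. The LOC arrays were higher by 0.53 with LOC1, which is 1.44-fold and 2.60 scanner errors, and by 0.45 with LOC3, which is 1.36-fold and 2.20 scanner errors. Under median scaling Srxn1 was past 1.5-fold with both strains, at 0.75 and 0.64, on a scale where 15.6% of all genes with LOC1 and 14.1% with LOC3 were higher by that much.

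Prdx1, a peroxiredoxin that reduces hydrogen peroxide and is a substrate of sulfiredoxin, had 4 detected probes. The brightest (chr4:116372029-116372088, plus strand) read 123313 with LPS, 140994 with LOC1 and 135806 with LOC3, and was higher by 0.30 and 0.24. The next probe (chr4:116365578-116366348) read 35770, 41114 and 38654, and the one after it (chr4:116358214-116360019) read 7546, 9055 and 8562. Their differences were 0.31 and 0.37 with LOC1 and 0.21 and 0.28 with LOC3. The dimmest probe (chr4:116358559-116358618), close to background at 55.6, 57.9 and 58.7, differed by 0.17 and 0.18. The LPS array was the lowest for each of the 4 probes. Each difference of the brightest probe was over 3 times the spot noise (5.40 and 3.78 SDs) and under 2 scanner errors (1.49 and 1.17).

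Hmox1, heme oxygenase 1, opens heme to biliverdin, iron and carbon monoxide, and its promoter is a known site of BACH1 repression. Its single probe (chr8:77624406-77624466, plus strand) read 16489 with LPS, 11902 with LOC1 and 12940 with LOC3. The LOC arrays were lower by 0.36 with LOC1, which is 1.28-fold, and by 0.25 with LOC3, which is 1.19-fold. These are 1.77 and 1.22 scanner errors, and 6.41 and 3.94 SDs of the spot noise. The probe of Nqo1, the other classical marker gene of NRF2 activity in this group (chr8:109912440-109912499, minus strand), was not well above background, as given above.

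Txnrd1, the cytosolic thioredoxin reductase, passes electrons from NADPH to thioredoxin. Its brightest probe (chr10:82360230-82360289, plus strand) read 24928 with LPS, 18744 with LOC1 and 19759 with LOC3, lower by 0.30 and 0.24. The second probe (chr10:82338379-82338438) read 15821, 11807 and 11554, lower by 0.31 and 0.35. The LPS array was the highest for both probes.

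Gclc and Gclm code for the catalytic and the modifier subunit of glutamate-cysteine ligase, the rate-limiting enzyme of glutathione synthesis. The Gclc probe (chr9:77641296-77641355, plus strand) read 2728 with LPS, 2110 with LOC1 and 2030 with LOC3, lower by 0.26 and 0.33. The Gclm probe (chr3:121967737-121967796, plus strand) read 5161, 4199 and 4127, lower by 0.19 and 0.22. Both subunits were highest in the LPS array, by 1.14-fold to 1.25-fold, except that Gclm was 0.03 above LPS with LOC1 under median scaling. Each difference as reported was under 2 scanner errors. In SDs of the spot noise the differences were 4.63 and 5.15 for Gclc, and 3.33 and 3.51 for Gclm.

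Gsr, glutathione reductase, returns oxidised glutathione to its reduced form. Its probe (chr8:34808488-34808547, plus strand) read 14655 with LPS, 12381 with LOC1 and 13739 with LOC3. After scaling this is -0.13 with LOC1 and 0.01 with LOC3, which is within 1 scanner error of 0 for each strain.

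Slc7a11 codes for xCT, the cystine importer that supplies cysteine for glutathione. It had 4 probes, of which 2 were well above background. The brighter (chr3:50176047-50176106, minus strand) read 584 with LPS, 519 with LOC1 and 564 with LOC3, a difference of -0.06 and 0.05. The dimmer (chr3:50169700-50169759) read 179, 139 and 153, a difference of -0.26 and -0.13. The probes at chr3:50246786-50246845 and chr3:50221136-50221195 read between 3.33 and 5.62 and gave no difference. Slc7a11, by its brighter probe, and Gsr were thus the genes without a common direction in the 2 strains. Under quantile normalization Gsr was at -0.07 with LOC3. With the 75th percentile over detected probes, Gsr and Slc7a11 were at -0.07 and -0.03 with LOC3, and Slc7a11 was at -0.04 as the mean of its probes.

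The exon or UTR in which each probe lies was not assigned, since the annotation used here is of another build than the mm9 of the probe positions. Srxn1, Hmox1, Gclc, Gclm and Gsr rest on 1 probe each. For Sqstm1, Prdx1 and Txnrd1 all detected probes lay on the same side of LPS with both strains.

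**Figure D4:**
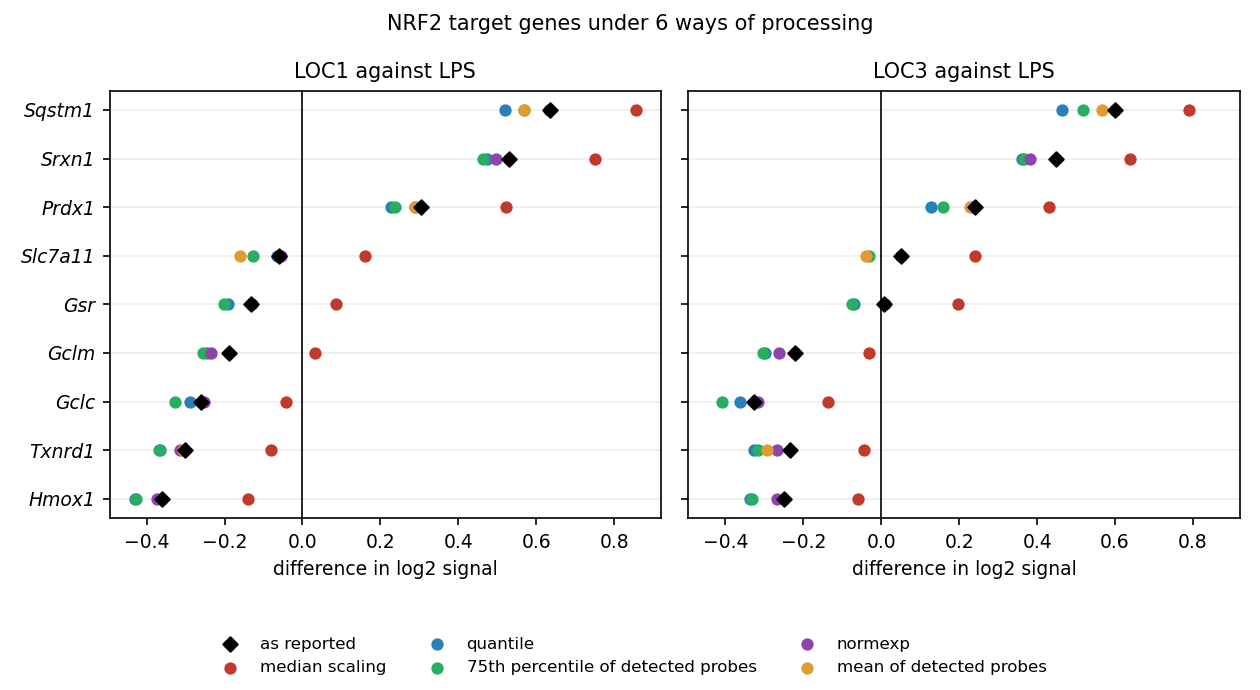
Difference in log2 signal from LPS alone (x axis) of the 9 genes under 6 ways of processing, LOC1 on the left and LOC3 on the right, 1 array per condition. Median scaling lifts every gene to the right, which brings Gclm, Gsr and Slc7a11 above 0 with LOC1, while Sqstm1, Srxn1 and Prdx1 are above 0 and Hmox1, Txnrd1 and Gclc below 0 under all 6.

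The strains were then compared with each other. No member was past 2-fold between LOC1 and LOC3, beside 0.815% of 19398 genes higher and 1.9% lower with LOC1. The median difference of LOC1 from LOC3 was 0.03 over the 9 genes, with 5 above 0 and 4 below, and -0.01 over all genes. The largest was that of Gsr, lower with LOC1 by 0.14, which is 2.27 SDs of the spot noise and 0.69 scanner errors. Srxn1 was 0.08 higher with LOC1, Gclc and Prdx1 were 0.07 and 0.06 higher, and Sqstm1 and Gclm were 0.04 and 0.03 higher. Hmox1 and Slc7a11 were each 0.11 lower and Txnrd1 0.07 lower with LOC1. Without replicate cultures, differences of this size do not show that the strains act alike or apart on these genes. The LOC1 and LOC3 differences from LPS share the LPS array, so their likeness is no independent evidence.

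The effect of LPS itself can be read only from the deposited log2 ratios to unchallenged macrophages, as the unchallenged array is not analysed here. In that table a ratio under 2-fold is blank, and not being listed does not say that a probe was under 2-fold. Of the 19 probes 5 were listed, from 4 genes. Slc7a11, Sqstm1 and Txnrd1 were listed as higher with LPS, beside 13.6% of 20430 detected gene names, and Gclc as lower, beside 9.79%. Hmox1, Gclm, Gsr, Srxn1 and Prdx1 were not listed.

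The dimmer Slc7a11 probe had the largest deposited ratio, 5.67 with LPS alone, 5.45 with LOC1 and 5.59 with LOC3. The unchallenged signal it implies is dimmer than 16.3, the weakest intensity that counted as detected with LPS. Against that floor this probe rose at least 10.99-fold, but the floor of the unchallenged array itself is not known. The 2 dimmer Sqstm1 probes had ratios of 2.15 and 2.73 with LPS, 2.98 and 3.04 with LOC1, and 2.89 and 3.18 with LOC3. By the first of these Sqstm1 rose 4.43-fold with LPS alone. The dimmer Txnrd1 probe had a ratio of 1.02 with LPS, a rise of 2.02-fold, and was blank with LOC1 and LOC3, where the intensities put it at 0.74 and 0.70. Gclc had a ratio of -1.29 with LPS alone, 2.45-fold lower than in unchallenged cells, -1.52 with LOC1 and -1.58 with LOC3. Gclc was thus below the unchallenged level in all 3 conditions and lowest with lactobacilli. The brightest probes of Slc7a11, Sqstm1 and Txnrd1 were not listed, so these values rest on their dimmer probes. The 3 ratios of a probe share the unchallenged array and are given side by side only.

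Of the 12 genes that regulate NRF2 and its partners, all were detected and none was past 2-fold with either strain as reported. Over all genes compared, 2.49% were at least 2-fold higher and 3.88% lower with LOC1, and 3.01% and 3.27% with LOC3. Among the 12, the largest differences were in Maff, which codes for a small MAF partner of NRF2, and Bach1 with LOC1. With LOC3 they were in Maff and Nfe2l1. Maff read 621 with LPS, 1081 with LOC1 and 923 with LOC3, higher by 0.91 and 0.67. Under median scaling Maff was past 2-fold with LOC1 and not with LOC3. Bach1 read 3327, 1868 and 2345, lower by 0.72 and 0.40. Thus the LPS array was lowest for Maff and highest for Bach1, and the LOC3 array lay between the others for both. Nfe2l1, which codes for the related factor NRF1, was higher by 0.42 and 0.45, and the small MAF gene Mafk by 0.23 and 0.27.

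Nfe2l2 itself had 2 probes that disagreed. The brightest (chr2:75513771-75513830, minus strand) read 10712, 9825 and 9586 and differed by -0.01 and -0.06. The other (chr2:75529291-75529350), assigned on the array to a non-coding RefSeq transcript, read 298, 466 and 423, higher by 0.76 and 0.61. Keap1 differed by 0.05 and 0.06, Cul3 by 0.08 and -0.02, and Rbx1, the RING subunit of the same ligase, by -0.06 and 0.10. Mafg differed by -0.10 and -0.09 at its brightest probe and by 0.15 at the other with both strains. Dpp3, whose product competes for KEAP1, differed by 0.04 and 0.05 at its brightest probe, while a dim probe at 136, 74.7 and 69.4 was lower by 0.76 and 0.87. The dim genes Nfe2l3 and Btrc differed by 0.15 and -0.06 with LOC1 and by 0.09 and -0.35 with LOC3. The other detected Btrc probe, at 41.8, 27.6 and 24.9, was lower by 0.49 and 0.64. With LOC1, the differences of Nfe2l2, Keap1, Rbx1, Mafg, Dpp3 and Btrc changed sign under at least 1 other processing, while those of Maff, Bach1, Nfe2l1 and Mafk kept theirs with both strains.

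In a wider list of 36 NRF2 target and glutathione genes, 33 were compared. Of these, 2 were past 2-fold upward and 1 downward with LOC1, and 1 in each direction with LOC3. Over all genes compared, 2.49% were at least 2-fold higher and 3.88% lower with LOC1, and 3.01% and 3.27% with LOC3. The median of the 33 genes was 0.01 with LOC1 and 0.03 with LOC3. Gsta3, a glutathione S-transferase, rose from a dim 33.1 with LPS to 117 with LOC1 and 68.2 with LOC3, a difference of 1.93 and 1.14 at its brightest probe and of 1.89 and 1.11 at the other detected one. Gstm1, another glutathione S-transferase, fell from 2869 to 1276 with LOC1 and 1176 with LOC3, by 1.06 and 1.19, and its other probe by 1.06 and 1.19 as well. The brightest Gstm1 probe is placed on chr5 in the files and the other on chr3, and both families have close relatives that may share signal. Trib3, a pseudokinase gene better known as a target of ATF4 than of NRF2, rose from 34874 to 66642 with LOC1 by 1.04, and read 60116 with LOC3, a difference of 0.89 that is under 2-fold. Slc48a1, a heme transporter gene, read 11794, 6223 and 6781, lower by 0.81 and 0.70. Its dimmer probe was lower by 1.004 and 0.82, so that this probe, unlike the brightest, was past 2-fold with LOC1.

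The 2-fold calls of Gsta3, Gstm1 and Trib3 did not hold under every setting. That of Gsta3 was lost with both strains under normexp background correction, that of Gstm1 with both strains under median scaling, and that of Trib3 with LOC1 under quantile normalization and with the 75th percentile over detected probes. The cause was not tested. Gsta3 was between 0.97 and 2.15 with LOC1 and between 0.53 and 1.33 with LOC3 over the other settings, and Gstm1 between -1.13 and -0.84 and between -1.27 and -0.996. Trib3 was between 0.94 and 1.26 with LOC1. With LOC3, Trib3 was under 2-fold as reported and past 2-fold under median scaling. All 3 genes kept their side of 0 throughout.

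Among 13 genes of oxidant-producing enzymes and superoxide dismutases, 11 were compared and none was past 2-fold with either strain as reported. The shares of all genes at least 2-fold higher and lower were 2.49% and 3.88% with LOC1, and 3.01% and 3.27% with LOC3. The median of the 11 genes was -0.01 with LOC1 and 0.08 with LOC3. Nos2, the inducible nitric oxide synthase, read 19696 with LPS, 32895 with LOC1 and 33264 with LOC3, higher by 0.85 and 0.86. Under median scaling Nos2 was past 2-fold with both strains. Xdh, xanthine oxidoreductase, was higher by 0.77 and 0.67, and Ncf1, a cytosolic subunit of the phagocyte NADPH oxidase, lower by 0.72 and 0.56. Nox4 was dim at 27.4 with LPS and 18.6 with LOC1, and was not well above background with LOC3.

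Of 15 further peroxiredoxin and thioredoxin system genes, Sesn1 fell past 2-fold with both strains, from 250 to 112 and 114, by 1.05 and 1.03. Of all genes compared, 3.88% were at least 2-fold lower with LOC1 and 3.27% with LOC3. Over the settings Sesn1 was between -1.12 and -0.75 with both strains. Its 2-fold call was lost with both strains under median scaling, quantile normalization and normexp background correction. This list had a median of 0.13 with LOC1 and 0.19 with LOC3. Its relative Sesn2, a stress-induced sestrin, read 2462 with LPS, 4242 with LOC1 and 4189 with LOC3, higher by 0.89 and 0.87. Msrb1, a methionine sulfoxide reductase, was higher by 0.86 and 0.89 at its brightest probe and by 0.43 and 0.34 at the other, and Prdx5, the mitochondrial and peroxisomal peroxiredoxin, by 0.75 and 0.70. Under median scaling Sesn2 and, by its brightest probe, Msrb1 were past 2-fold with both strains. Of the reference genes, Actb differed by 0.03 and 0.08 and was at -0.03 and -0.00 with the 75th percentile over detected probes. Gapdh differed by 0.26 and 0.30.

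**Figure D5:**
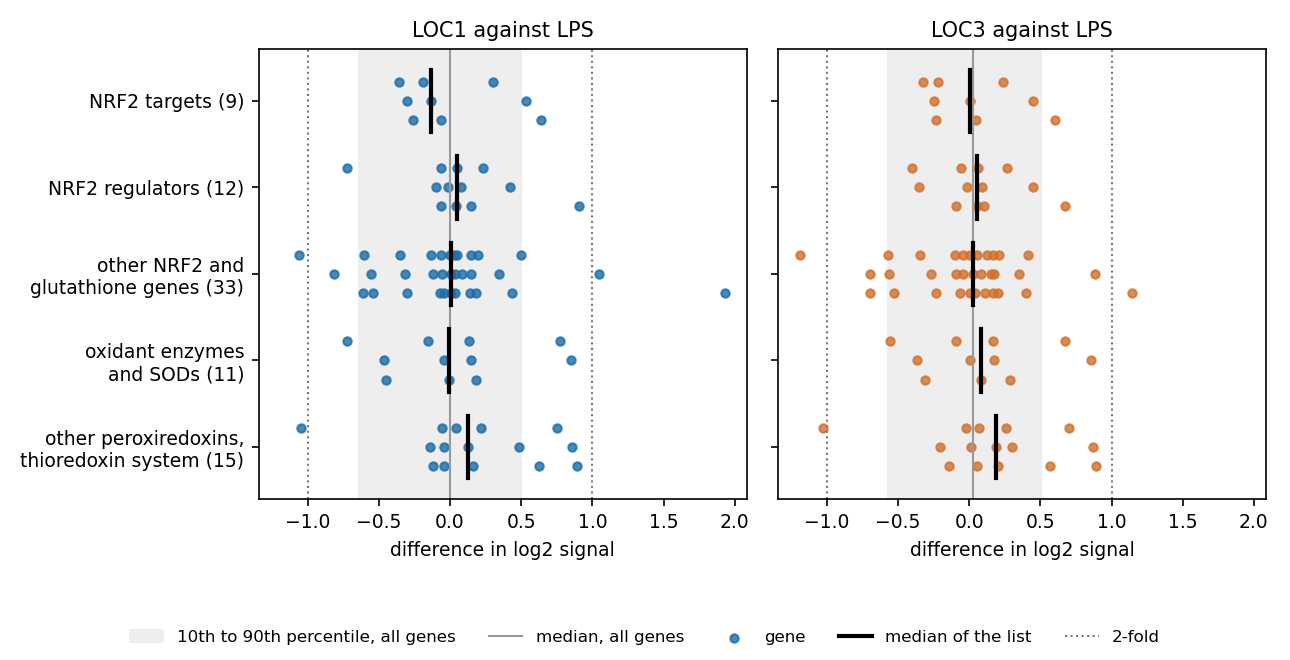
Difference in log2 signal from LPS alone (x axis) of each gene of 5 lists, LOC1 on the left and LOC3 on the right, 1 array per condition; black bars are list medians, the grey line and band are the median and the 10th to 90th percentile of all genes compared, and dotted lines mark 2-fold. Each list lies on both sides of 0, and the NRF2 targets reach from -0.36 to 0.64 with LOC1.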

How the data were processed

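RNA of RAW264.7 cells given LPS, LOC1 before LPS or LOC3 before LPS was hybridised to Agilent mouse arrays, 1 per condition, grouped by the sample labels. The authors deposited the spot intensity as background-corrected by Feature Extraction 12.0.3.1 (file headers, probe positions in mm9), with no scaling between arrays. They also deposited log2 ratios to unchallenged cells for 13135 probes, made in GeneSpring and blank under 2-fold. The submitters' processing notes name R 3.2.5 and limma.

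Here outlier spots were left out (118 to 135 per array), and the log2 intensity less the array's 75th percentile was compared for genes detected (well above background) in either array of a pair. A signal below that mark was raised to the lowest one above it (16.3, 14.5 and 19.8 for LPS, LOC1 and LOC3). The members and gene lists were chosen with earlier results of these data known. Named genes were the members, the regulators, and in 3 further lists each gene past 2-fold and the 4 with the largest mean difference, with Actb and Gapdh. The count of members above 0 and the mark of 2 scanner errors were added after the data were seen. With 1 array per condition no test was run, and the number of arrays limits the precision. Alternatives were median, quantile and detected-probe scaling, normexp (limma 3.58.1, offset 50), both arrays above background, no filter, the mean of probes, outliers kept, and thresholds of 1.5-fold and 3-fold. Python 3.11.15, numpy 2.4.6, pandas 2.3.3, matplotlib 3.10.9 and R 4.3.3 were used, and the procedure was tested on simulated data.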

Additional observations from a re-analysis of the deposited data

Results flagged for a closer look

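Slc7a11, by its brightest probe, and Gsr had differences from LPS of opposite sign with the 2 strains. In log2 units, the LOC1 value was -0.060 and the LOC3 value 0.051 for Slc7a11, and -0.133 and 0.0070 in the same order for Gsr. With 1 array per condition the difference between the strains was not tested. Each of these values was under 1 scanner standard error, and under median scaling both genes were above 0 with both strains. The other detected Slc7a11 probe was below LPS with both strains, at -0.26 and -0.13. The mean of the detected Slc7a11 probes was at -0.16 with LOC1 and -0.04 with LOC3.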

How the results depend on the processing

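No paired analysis was possible because each condition has 1 array, and for the same reason no replicate could be left out. No member was past 2-fold in a comparison among the LPS, LOC1 and LOC3 arrays under the alternatives run or at a 3-fold threshold. At 1.5-fold the count became 1 with LOC1 and 1 with LOC3. Against unchallenged cells, 4 members were listed with a deposited ratio for LPS, and the count was 4 as well with blank ratios rebuilt. The members' median with LOC1 was 0.086 under median scaling, -0.19 under quantile normalization and -0.20 with the 75th percentile over detected probes, where it was -0.13 as reported. With LOC3 it was 0.20, -0.071 and -0.074 under the same settings, in place of 0.01. With LOC1, 6 members were above 0 under median scaling in place of 3, and with LOC3, 3 were above 0 in place of 5 with the 75th percentile over detected probes. In all, 10 of these 79 summaries moved and 69 did not. Intensity over background limits the dim probes, and Nqo1 gave no value.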
